A study of Mus musculus with 20 samples.

Results

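The genes described are 10 heat shock and chaperone genes, Hsp90aa1, Hsp90ab1, Hspa8, Hspa4, Hsph1, Hspa1b, Dnajb1, Hspb1, Hspd1 and Hspe1, in the mouse prostate. Separate groups of mice were compared: sham-treated, castrated, and castrated and then given testosterone. They were chosen by name, and every probe set annotated to 1 of them alone was taken. Of the 10 genes, 9 had such a probe set (15 probe sets, among 12422 probe sets and 8251 genes with a single symbol in the series), and 8 passed the filter on dim probe sets, among 5372 genes. Hsp90ab1, the constitutive cytosolic Hsp90, had no probe set with a single symbol in the annotation used, and Hspb1 did not pass the filter. The tissue was the whole prostate, from 4 groups of 5 C57/B6 mice, 10 to 12 weeks of age, with 1 Affymetrix array per mouse. The groups were sham-treated mice (coded N3, with no time after surgery stated), mice castrated 3 days before, mice castrated 14 days before, and mice castrated for 14 days that then carried a testosterone pellet of 15 mg for 3 days (the testosterone group). The labels name no other treatment or allele. They name no castrated group as long after surgery as the testosterone group, and none with an empty pellet. In comparisons of that group, testosterone, the pellet itself and the later time after castration therefore cannot be told apart. A whole prostate holds epithelium, stroma and immune cells, so a signal is a sum over cell types. All values are signals, that is, array intensities on a linear scale, and a signal of 1 probe set is not compared with that of another.

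Chaperones bind unfolded or partly folded proteins and release them in cycles driven by ATP. In the cytosol, Hsp40 proteins such as Dnajb1 deliver clients to Hsp70 (Hspa8, Hspa1b), Hsp110 proteins (Hspa4, Hsph1) exchange the nucleotide of Hsp70, and Hsp90 receives selected clients from Hsp70. Steroid hormone receptors are held ready to bind hormone by Hsp90 with co-chaperones such as Fkbp4 and Fkbp5. Hspd1 and Hspe1 encode Hsp60 and Hsp10, which form the folding chamber of mitochondria, so these members are not cytosolic in the strict sense. Heat shock factor 1 induces many of these genes by binding heat shock elements, inverted repeats of GAA and TTC.

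Promoter sequences of 4 members, Hspd1, Hspe1, Hspa1b and Hsph1, are shown because those genes changed in the comparisons below, and the first of the 3 sequences is shared by a pair of neighbours. Windows from 250 bases before to 50 bases after each transcription start were taken from RefSeq (GRCm38.p6), which held them for 7 of the 10 members (not Hsp90aa1, Hsp90ab1 or Hspa8). Both strands were searched for GAANNTTC, for TTCNNGAA and for a longer element of 3 units, GAANNTTC continued by NNGAA (on the other strand, TTCNNGAA continued by NNTTC), which contains both shorter ones. Hspd1 and Hspe1 lie head to head on chromosome 1. Hspd1 had a start at 55088243, inside Hspe1, whose window held none of these motifs, and another at 55087932. Between the latter and the Hspe1 start, at 55088148, lie 215 bases. The whole interval is chr1:55087933-55088147, given on the plus strand, from -215 to -1 of the Hspe1 start, with the run of overlapping motifs in capitals.
Hspd1-Hspe1 interval: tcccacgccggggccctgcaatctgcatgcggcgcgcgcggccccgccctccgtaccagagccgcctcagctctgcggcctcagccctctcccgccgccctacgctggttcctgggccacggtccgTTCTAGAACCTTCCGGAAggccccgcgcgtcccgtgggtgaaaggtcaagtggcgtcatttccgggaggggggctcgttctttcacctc
The 18 capital bases lie at -89 to -72 of the Hspe1 start. They lie at -144 to -127 of the Hspd1 start at 55087932, where the minus strand reads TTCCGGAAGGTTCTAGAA. Next are the 200 bases before the start of Hspa1b, the stress-inducible Hsp70 (chr17:34959239-34959438, minus strand), with the GAANNTTC match at -104 to -97 in capitals.
Hspa1b promoter: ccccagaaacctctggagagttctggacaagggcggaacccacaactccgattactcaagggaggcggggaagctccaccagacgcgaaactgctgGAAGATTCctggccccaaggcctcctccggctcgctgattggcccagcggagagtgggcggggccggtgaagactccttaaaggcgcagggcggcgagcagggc
The 200 bases before a start of Hsph1, an Hsp110 (chr5:149636337-149636536, minus strand), hold a TTCNNGAA match at -33 to -26, in capitals.
Hsph1 promoter: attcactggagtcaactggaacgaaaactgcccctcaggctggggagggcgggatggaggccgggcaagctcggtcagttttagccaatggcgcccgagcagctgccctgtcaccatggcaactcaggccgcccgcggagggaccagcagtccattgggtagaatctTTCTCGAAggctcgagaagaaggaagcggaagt
GAANNTTC was found in windows of 5 of the 7 members (Hspa1b, Hspb1, Hspd1, Hspe1 and Hsph1) and in 9.04% of 27025 genes. The longer element was found in 3 (Hspd1, Hspe1 and Hsph1, in the last after the start, at 36 to 48) and in 0.662% of genes. TTCNNGAA was found in the same 3 members and in 9.6% of genes. The matches of Hspd1 and Hspe1 are the same 18 bases of the shared interval, counted for both genes. In Hsph1 the GAANNTTC match also lies after the start, at 41 to 48. In Hspa4 and Dnajb1 none of these letters was found in the windows. A match is a stretch of letters and not a measured binding site.

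The 20 arrays held signals of 0 to 28576, and their medians lay between 154 and 224. Replicate numbers follow the order of the arrays within each group of the series and are not given by the labels. The 3' probe set of the Gapdh control was far brighter than the 5' one on 4 arrays, a sign of shorter RNA. They were castrated 14-day replicates 4 and 5 and testosterone replicates 2 and 5, at log2 ratios of 1.82 to 4.54, while the 16 others were at -0.53 to -0.08. The beta-actin control differed far less, with log2 ratios of 0.73 to 1.11 on these 4 arrays and 0.29 to 0.68 on the 16 others. The luminal markers of prostate epithelium were present, with Pbsn signals up to 18101, and of 5 basal markers Krt17 and Trp63 passed the filter (highest signals 294 and 582.9) while Krt5, Krt14 and Krt15 did not. All groups enter several comparisons, so these are not independent of each other, and each comparison's values are given side by side. In whole tissue, fewer cells of a type and less RNA per cell cannot be told apart.

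After 3 days of castration, 1 of the 8 members tested rose and 0 fell (9.84% and 4.46% of all 6913 probe sets tested were called higher and lower by limma at a Benjamini-Hochberg adjusted p under 0.05, 14.3% in all). The riser was Hspa1b, which was also the 1 member whose groups did not overlap, as for 13.3% of all probe sets (8.77% higher and 4.54% lower). After 14 days, Hspa1b was higher and Hsph1 lower than in sham, so 1 member rose and 1 fell (28.6% and 24.3% of all probe sets, 52.9% together). The groups of both genes did not overlap, as for 35% of all probe sets (19.4% higher and 15.7% lower). Between 3 and 14 days of castration 0 members rose and 2 fell, Hsph1 and Hspd1 (20.2% and 20.4% of all probe sets, 40.5% together). Their groups did not overlap either, as for 32.4% of all probe sets (16.2% in each direction). Median log2 changes of the 8 members were 0.10, 0.08 and -0.02 in the 3 comparisons, against 0.04, 0.01 and -0.01 over all probe sets tested.

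With testosterone, 3 of the 8 members rose against castration for 14 days and 0 fell (18.2% and 26.6% of all probe sets were called higher and lower, 44.8% together). These were Hsp90aa1 and the mitochondrial pair, Hspd1 and Hspe1, and the groups of all 3 did not overlap, as for 30.7% of all probe sets (12.5% higher and 18.2% lower). Against sham, 4 members were higher in the testosterone group (Hsp90aa1, Hspd1, Hspe1 and Hspa1b) and 1 was lower, Hsph1 (23.5% and 29.5% of all probe sets, 53% together). Of these, Hspe1 and Hspa1b had groups that did not overlap, as for 31.4% of all probe sets (15.4% higher and 16% lower). The median log2 change of the members was 0.19 against castration and 0.35 against sham, beside -0.10 and -0.09 over all probe sets tested. Centring each array on its median moved the medians of all probe sets to 0.09 and 0.08, shifts of over 0.1. With that centring 1827 probe sets were called higher and 1024 lower between testosterone and castration, against 1259 and 1840 as deposited, and against sham 2026 and 1206, compared with 1624 and 2041. Under that centring 4 members were called higher with testosterone than after castration, Hspa8 being added, and 4 higher and 0 lower than in sham. With quantile normalization 1 member, Hspd1, was called higher with testosterone than after castration, and Hsp90aa1 (0.43, adjusted p = 0.101) and Hspe1 (0.27, adjusted p = 0.0981) were not.

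**Figure D1:**
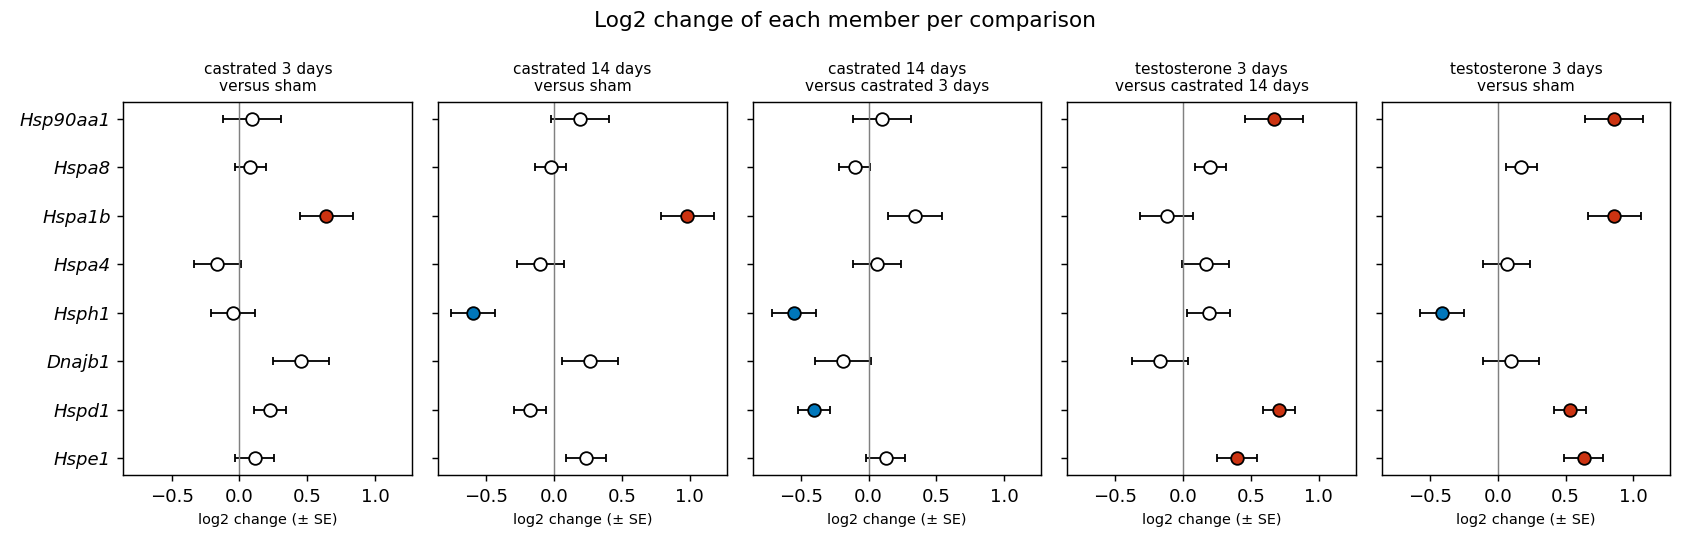
Log2 change (horizontal axis, with the standard error as bars) of the 8 tested heat shock and chaperone genes in each of the 5 comparisons, from limma. Red circles are called higher and blue circles lower at an adjusted p under 0.05, and open circles are not called. Hsp90aa1, Hspd1 and Hspe1 are red in both comparisons of the testosterone group, while Hspa8, Hspa4 and Dnajb1 are open in all 5.

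Hsp90aa1 encodes the inducible cytosolic Hsp90. Its signal in sham prostates was 7373, 3121, 3311, 4061 and 2212 on replicates 1 to 5. After 3 days of castration it was 4104, 4312, 3891, 3678 and 3694, and after 14 days 4348, 4159, 3284, 5333 and 4178. In the testosterone group it was 5409, 7068, 6560, 6985 and 7672. Every testosterone array was above every castrated array, while sham replicate 1 lay among the testosterone arrays and the other sham arrays lay below them. The group means were 4016 ± 1989 (SD, n = 5), 3936 ± 272, 4261 ± 729 and 6739 ± 843. Hsp90aa1 rose with testosterone by a log2 change of 0.67 ± 0.21 (SE) over castration for 14 days (limma adjusted p = 0.0156) and was higher than in sham by 0.86 ± 0.21 (adjusted p = 0.00261). The first of these calls ended once the 4 arrays of high Gapdh ratio were left out (0.69, adjusted p = 0.0708) and with quantile normalization (0.43, adjusted p = 0.101). Neither castrated group differed from sham beyond the test (log2 changes 0.09 and 0.19, adjusted p = 0.837 and 0.476), although without sham replicate 1 the 14-day group was called higher (0.44, adjusted p = 0.0232). The SD of log2 signals of Hsp90aa1 in sham, 0.64, was above that of 95.1% of probe sets tested. A second, dim probe set of the gene, at 18.1 to 82.1, did not pass the filter.

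Hspa8, the constitutive cytosolic Hsp70, was not called in any comparison. Its group means were 4985 ± 889 (SD, n = 5) in sham, 5214 ± 425 after 3 days, 4861 ± 518 after 14 days and 5565 ± 385 with testosterone. Single arrays ran from 3896 to 6143 and the groups overlapped in all 5 comparisons. The log2 changes ran from -0.10 to 0.20, and the 95% confidence intervals of the 5 changes lay between -0.34 and 0.44. With centred arrays, Hspa8 was called higher with testosterone than after 14 days of castration (0.39, adjusted p = 0.0325), and with quantile normalization the same change was -0.0744.

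Hspa1b, the stress-inducible Hsp70, behaved differently. Sham signals were 844, 880, 996, 866 and 831, a narrow band. After 3 days they were 1070, 1033, 1008, 1978 and 2267, after 14 days 1708, 1497, 1818, 1556 and 2288, and with testosterone 1873, 1506, 1311, 1689 and 1730. No array of the other groups was as low as any sham array, and at 3 days replicates 4 and 5 stood well above the other 3. The means were 883 ± 65.6 (SD, n = 5), 1471 ± 604, 1773 ± 314 and 1622 ± 217. Against sham, Hspa1b was higher by a log2 change of 0.64 ± 0.20 (SE) at 3 days (limma adjusted p = 0.0341), by 0.98 ± 0.20 at 14 days (adjusted p = 0.000345) and by 0.86 with testosterone (adjusted p = 0.00125). Between testosterone and castration for 14 days its change was -0.12 (adjusted p = 0.639), and 0.0734 with centred arrays. The last pair of calls against sham held in all 31 alternative settings, but the call at 3 days ended in 9. It ended without castrated 3-day replicate 4 (0.51, adjusted p = 0.103) or 5 (0.46, adjusted p = 0.101), and without sham replicate 1 (0.62, adjusted p = 0.0622), 2 (0.64, adjusted p = 0.0592), 4 (0.63, adjusted p = 0.0541) or 5 (0.62, adjusted p = 0.0624). Without castrated 3-day replicate 5, the change from 3 to 14 days, 0.34 in the full set (adjusted p = 0.172), was called higher (0.52, adjusted p = 0.0255).

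Hspa1a lies beside Hspa1b on chromosome 17 and encodes a near-identical Hsp70, so hybridisation between their probe sets cannot be separated here and both are uncertain. The Hspa1a probe set had means of 667 ± 168 (SD, n = 5), 985 ± 292, 1569 ± 312 and 835 ± 76.8 in the same order of groups. It rose between sham and 14 days of castration (log2 change 1.23, limma adjusted p = 2.32e-05), like Hspa1b, but fell with testosterone (-0.88, adjusted p = 0.00077), where the Hspa1b probe set gave no call. A ratio of these signals uses the same values as the calls of both genes, so its tests add no separate support. Within each array, the log2 ratio of Hspa1b to Hspa1a signals was 0.18 ± 0.23 (SD, n = 5) after 14 days of castration and 0.94 ± 0.15 with testosterone. The ranges did not overlap, the difference being 0.76 (two-sided exact permutation p = 0.00794, the smallest that 5 against 5 arrays allow, adjusted p = 0.0397 over 10 tests of ratios chosen after the values were seen). When the 4 arrays of high Gapdh ratio were left out the difference was 0.63 and was not called (exact permutation p = 0.1, the smallest that 3 against 3 arrays allow).

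Hspa4 encodes a constitutive Hsp110. On its brightest probe set the means were 1754 ± 598 (SD, n = 5) in sham, 1507 ± 183 at 3 days, 1578 ± 233 at 14 days and 1770 ± 249 with testosterone, and no comparison passed the test. Sham arrays alone ran from 1126 to 2693. Of the other probe sets of Hspa4, 3 passed the filter, and they did not follow the brightest. In the testosterone group these 3 were higher than in sham by log2 changes of 0.58, 0.47 and 0.48 (limma adjusted p = 0.00194, 0.00135 and 0.00826), against 0.06 on the brightest (adjusted p = 0.774). At 14 days of castration 2 of the 3 were higher than in sham (0.38 and 0.44, adjusted p = 0.0286 and 0.0135), and between testosterone and castration the remaining 1 was higher (0.36, adjusted p = 0.0105). The mean of all tested probe sets of the gene rose by 0.40 between sham and testosterone (adjusted p = 0.00121), so the call for Hspa4 depends on which probe sets are read.

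Hsph1, the other Hsp110 and a gene induced by heat, went down after 14 days of castration. Its signals were 2254, 1197, 1168, 1753 and 1134 in sham and 1248, 1435, 1300, 1535 and 1491 after 3 days. After 14 days they were 1013, 794, 868, 1071 and 1032, and with testosterone 1015, 966, 985, 1283 and 1201. All 14-day arrays lay below all sham and all 3-day arrays, while the testosterone arrays overlapped sham and the 14-day group. The fall was -0.60 ± 0.16 (SE) on the log2 scale against sham (1501 ± 492 to 956 ± 118, SD, n = 5, limma adjusted p = 0.00414) and -0.55 ± 0.16 against 3 days (adjusted p = 0.0106). Both calls held in all 31 alternative settings. Hsph1 and Hspa1b therefore moved in opposite directions between sham and 14 days of castration. With testosterone, at 1090 ± 143, Hsph1 was not called against castration (0.19, adjusted p = 0.362). It was lower than in sham (-0.41, adjusted p = 0.038), a call that ended in 10 settings, among them leaving out sham replicate 1 (-0.25, adjusted p = 0.12) or 4 (-0.34, adjusted p = 0.0982), or testosterone replicate 1 (-0.39, adjusted p = 0.0685), 2 (-0.37, adjusted p = 0.0819) or 3 (-0.38, adjusted p = 0.0766).

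Dnajb1, the main heat-inducible Hsp40 of the cytosol, was not called in any comparison. It measured 249, 228, 258, 328 and 274 in sham, 328, 294, 386, 413 and 444 after 3 days, and 363, 251.6, 379, 297 and 335 after 14 days. With testosterone it was 412, 154, 395, 333 and 220, and the low values of 154 and 220 were those of replicates 2 and 5, the arrays of high Gapdh ratio in that group. After 3 days the log2 change was 0.46 ± 0.21 (SE, adjusted p = 0.155), and it was called when these 2 and the 2 other arrays of high ratio were left out (0.46, adjusted p = 0.0294) or when only the compared groups were fitted (adjusted p = 0.0377). The change between sham and testosterone was 0.10 with all arrays (adjusted p = 0.711) and 0.49 without the 4 (adjusted p = 0.0183). Between 14 days of castration and testosterone it was -0.17 with all arrays and 0.21 without the 4. Hspb1, the small heat shock protein Hsp27, gave signals of 5.6 to 77.1, was above the median of all values, 190.8, on 0 of 20 arrays and was not tested. Its means were 56.0 ± 18.4 (SD, n = 5), 37.8 ± 5.76, 28.8 ± 14.6 and 24.0 ± 15.0 in sham, 3 days, 14 days and testosterone.

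**Figure D2:**
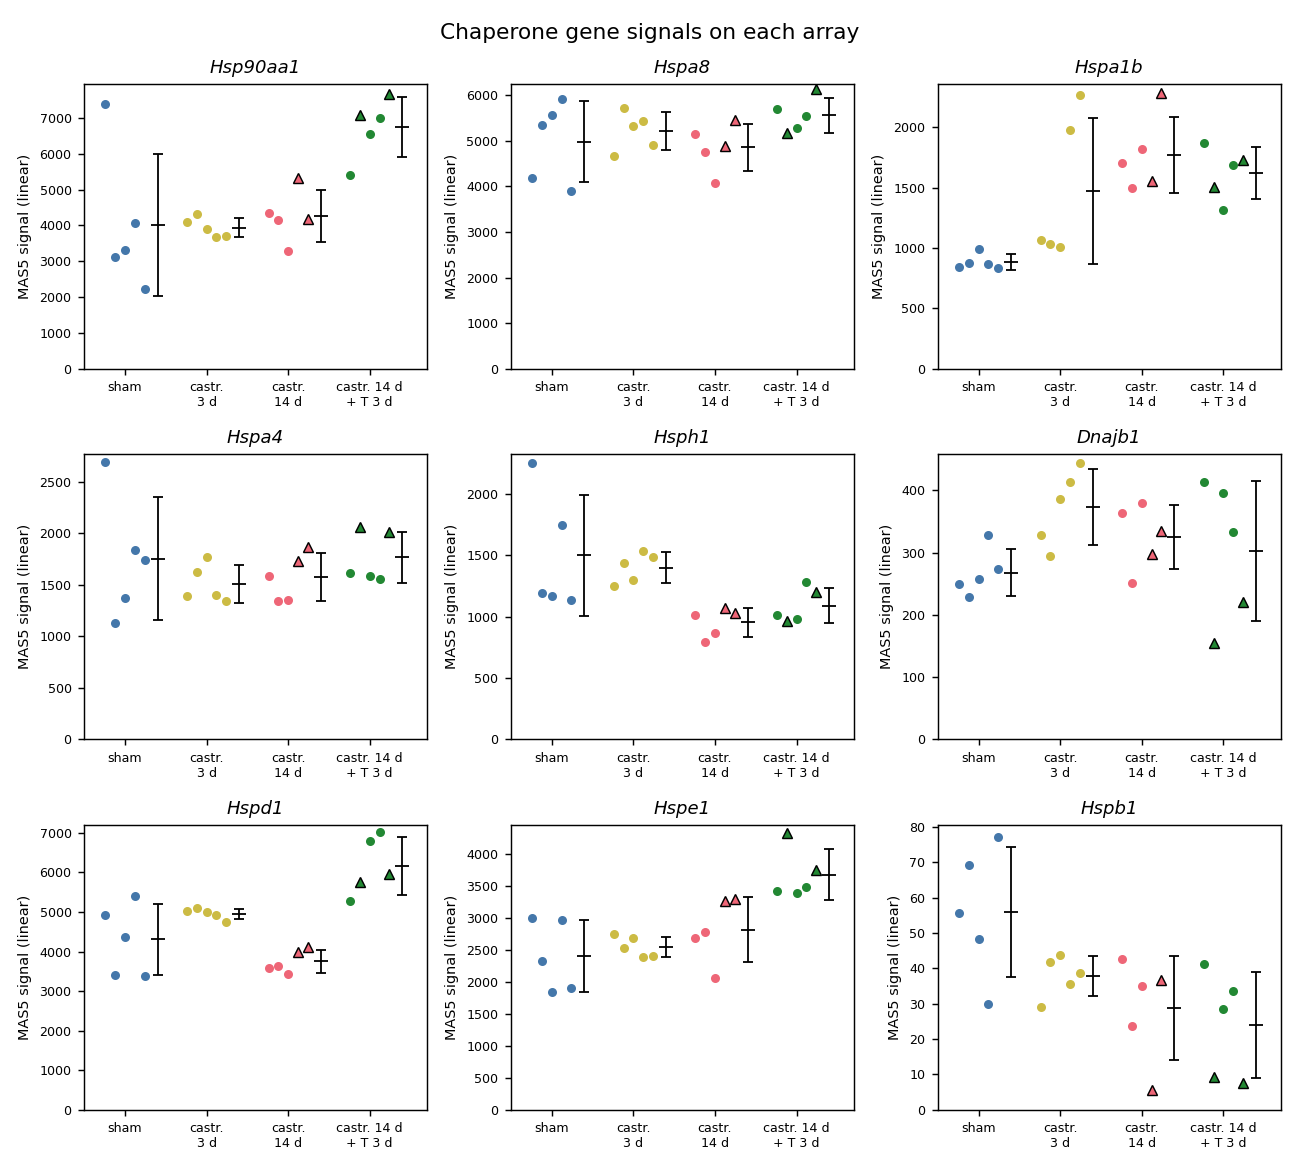
Signal (linear array intensity, vertical axis from 0) of the brightest probe set of each member with a probe set, on each of the 20 arrays. Hspb1, in the last panel, did not pass the filter and was not tested. Circles are arrays, triangles with a black edge the 4 arrays of high Gapdh ratio, and the black mark beside each group is the mean with its SD over 5 mice. Hsp90aa1 and Hspd1 are highest in the testosterone group, Hspa1b is lowest in sham, and Hsph1 is lowest after 14 days of castration.

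Hspd1, the mitochondrial Hsp60, fell between 3 and 14 days of castration and rose with testosterone. Its signal was 4928, 3418, 4379, 5412 and 3393 in sham and 5022, 5095, 4992, 4913 and 4742 after 3 days. It was 3591, 3634, 3424, 3993 and 4127 after 14 days and 5268, 5764, 6784, 7026 and 5957 with testosterone. All 14-day arrays lay below all 3-day arrays, and all testosterone arrays above both castrated groups. The sham arrays spread from the level of the 14-day group to that of the testosterone group. From 4953 ± 135 (SD, n = 5) at 3 days Hspd1 fell to 3754 ± 294 at 14 days (log2 change -0.40 ± 0.12 (SE), limma adjusted p = 0.012). With testosterone it rose to 6160 ± 730 (0.71 ± 0.12, adjusted p = 8.07e-05), above sham at 4306 ± 900 (0.53, adjusted p = 0.00111). These 3 calls held in all 31 alternative settings. Against sham neither castrated group was called (0.23 at 3 days, adjusted p = 0.233, and -0.18 at 14 days, adjusted p = 0.226). A dim second probe set, with signals of 60.8 to 260, did not pass the filter.

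Hspe1, the Hsp10 lid of the same chamber, rose with testosterone but did not fall before it. Sham signals were 3008, 2334, 1842, 2974 and 1902, and after 3 days 2748, 2542, 2684, 2400 and 2405. After 14 days they were 2696, 2788, 2061, 3266 and 3304, and with testosterone 3422, 4342, 3393, 3493 and 3763. Every testosterone array was above every array of the other 3 groups. The means were 2412 ± 562 (SD, n = 5), 2556 ± 158, 2823 ± 506 and 3683 ± 397. The rise was 0.63 over sham on the log2 scale (limma adjusted p = 0.00134, held in all 31 settings) and 0.40 ± 0.15 (SE) over castration for 14 days (adjusted p = 0.0327). The latter call ended in 7 settings, with changes of 0.27 to 0.40. It ended without 14-day replicate 1 (0.38, adjusted p = 0.0608), 2 (0.40, adjusted p = 0.0535) or 3 (0.29, adjusted p = 0.106), and without testosterone replicate 2 (0.33, adjusted p = 0.0811) or 5 (0.39, adjusted p = 0.0578), the last 2 having a high Gapdh ratio. Without all 4 arrays of high ratio it was called (0.46, adjusted p = 0.0471).

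The products of Hspd1 and Hspe1 work as partners, and the genes share the 215-base interval printed above, but the ratio of their signals differed between groups of arrays. The ratio was chosen after the values were seen. Its tests use the same values as the calls of the 2 genes and add no separate support. Within each array, the log2 ratio of Hspd1 to Hspe1 was 0.84 ± 0.26 (SD, n = 5) in sham, 0.95 ± 0.07 after 3 days, 0.43 ± 0.18 after 14 days and 0.74 ± 0.26 with testosterone. The 14-day ratios, 0.29 to 0.73, were all below the 3-day ratios, 0.87 to 1.03. The difference was -0.53 (two-sided exact permutation p = 0.00794, the smallest possible, adjusted p = 0.0397 over the same 10 tests) and -0.45 on the 16 arrays of low Gapdh ratio (exact permutation p = 0.0357, not adjusted). Against sham the 14-day difference was -0.41 (exact permutation p = 0.0238, adjusted p = 0.0595), and between testosterone and 14 days it was 0.31 (exact permutation p = 0.0794, adjusted p = 0.132). The 2 lowest 14-day ratios were those of replicates 4 and 5, which have the high Gapdh ratio.

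**Figure D3:**
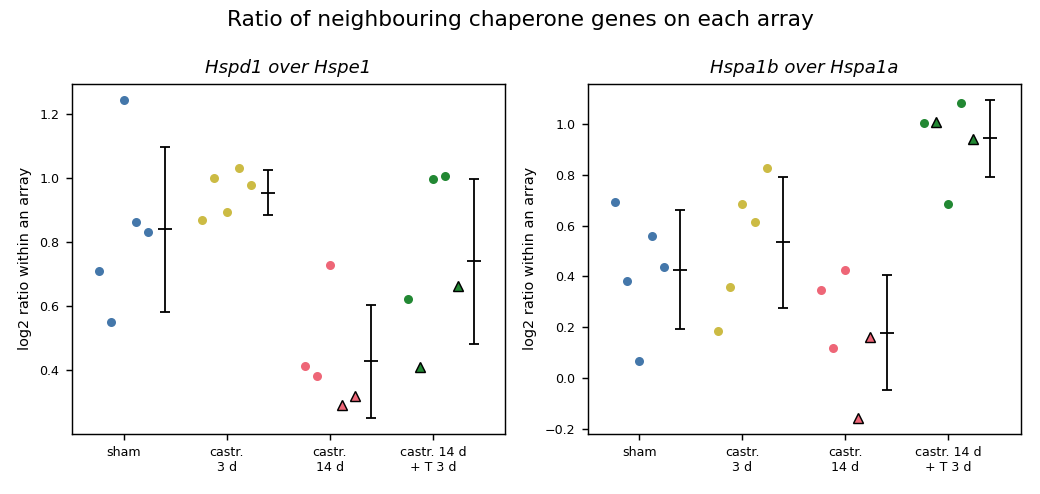
Log2 ratio within each array (vertical axis) of Hspd1 to Hspe1 on the left and of Hspa1b to Hspa1a on the right, by group. Points are arrays, triangles the 4 arrays of high Gapdh ratio, and the black mark the mean with its SD over 5 mice. The Hspd1 to Hspe1 ratio is lower at 14 days of castration (0.43) than at 3 days (0.95), and the Hspa1b to Hspa1a ratio is higher with testosterone (0.94) than at 14 days of castration (0.18).

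Mice of 1 group differed in sets of members together. In sham, replicate 1 was the highest of the 5 for 4 of the 8 members and replicate 4 for 3, with median deviations from the group mean of 0.28 and 0.27 (log2), while replicate 5 was the lowest for 5 (-0.31). Sham replicate 1 held the top value of Hsp90aa1, Hspa4, Hsph1 and Hspe1. In the mice castrated for 14 days, replicate 5 was the highest for 5 of the 8 members, and replicates 2 and 3 were each the lowest for 4. That replicate 5 is an array of high Gapdh ratio. In the mice castrated for 3 days, replicates 4 and 5 were the highest for Hspa1b, Dnajb1 and Hsph1, and also for Hspa1a (1287 and 1273 against 622 to 940). The same 2 arrays were the lowest of the group for Hsp90aa1, Hspd1 and Hspe1. These patterns were noticed in the values and not tested. The Gapdh log2 ratios of the 2 arrays, -0.37 and -0.53, were the lowest of that group, and their part in the pattern was not tested. Hspd1 otherwise varied little at 3 days, its SD of 0.04 (log2) being above that of 1.59% of probe sets tested, whereas the SD of Hspa1b there, 0.56, was above that of 97.7%.

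Over the 20 arrays, Hsp90aa1 and Hspe1 had the highest correlation among members (Pearson r = 0.87), followed by Hsp90aa1 with Hspd1 (0.72) and Hspd1 with Hspe1 (0.64). Hspa1b and Hsph1 correlated at -0.39. Among 5363 other genes, the profile nearest to Hsp90aa1 was that of Psmb5, a catalytic proteasome subunit (r = 0.93), and then Hnrnpa2b1, an RNA-binding protein (0.89). For Hspe1 they were Pno1, a ribosome assembly factor, and Mrpl21, a mitochondrial ribosomal protein (both 0.92), and for Hspd1 Slc9a3r1, a scaffold protein of epithelial membranes (0.91), and Tbrg1 (0.87). Hsph1 was most like Ergic2 (0.92) and Ubqln2 (0.85), and Hspa1b most like Matn2 and Islr, secreted proteins of the extracellular matrix (both 0.85). Dnajb1 was nearest to Pold3 (0.87) and Clk2 (0.80), Hspa4 to Dtd2 (0.82) and Hax1 (0.77), and Hspa8 to Rbbp7 (0.70) and Mycl (0.67). These correlations are over arrays that share groups and 4 arrays of high Gapdh ratio, and they describe these arrays only.

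Of 30 partner proteins of Hsp90 and Hsp70, 24 were tested. After 3 days 0 rose and 1 fell, after 14 days 7 rose and 7 fell against sham, and between 3 and 14 days 8 rose and 4 fell. With testosterone 5 rose and 3 fell against castration, and 7 rose and 5 fell against sham. Their median log2 changes were between -0.05 and -0.01 in the 5 comparisons, beside -0.10 to 0.04 over all probe sets. Among all probe sets 14.3%, 52.9%, 40.5%, 44.8% and 53% were called in the comparisons of 3 days with sham, 14 days with sham, 14 with 3 days, testosterone with castration and testosterone with sham. The 14 of 24 partner proteins called at 14 days against sham are near that background, and no count of this list is read as particular to it. The single fall at 3 days was that of Fkbp5, an Hsp90 co-chaperone of steroid receptors (-0.90, limma adjusted p = 0.000478). Its signals were 591 to 843 after 14 days and 2920 to 3444 with testosterone, a log2 change of 2.15 (adjusted p = 1.2e-09), and on all 5 testosterone arrays it was above the highest sham array, at 2521. Fkbp4, the related co-chaperone, fell by 0.57 after 14 days (adjusted p = 0.000242) and rose by 0.37 with testosterone (adjusted p = 0.00892). Ppid, the cyclophilin partner of Hsp90, went the other way, from 474 ± 77.9 (SD, n = 5) in sham to 1133 ± 132 after 14 days (1.24, adjusted p = 7.24e-08) and 663 ± 106 with testosterone (-0.77, adjusted p = 3.28e-05). Bag3, a co-chaperone that links Hsp70 to small heat shock proteins, rose after 14 days (0.93, adjusted p = 0.00013) and was higher than sham with testosterone (1.08, adjusted p = 3.25e-05), as was Hspa1b. Hspa14, an Hsp70 of the ribosome, was higher than sham by 0.89 after 14 days (adjusted p = 0.000338) and by 1.62 with testosterone (adjusted p = 6.1e-07). Cdc37, which brings kinases to Hsp90, was lower than sham with testosterone (-0.73, adjusted p = 0.0313).

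Beside the counts of this paragraph stand the shares of all probe sets called higher and lower. They were 9.84% and 4.46% at 3 days, 28.6% and 24.3% at 14 days, and 20.2% and 20.4% between 3 and 14 days. With testosterone they were 18.2% and 26.6% against castration, and 23.5% and 29.5% against sham. Among 14 other genes of the Hsp70 family and the heat shock response, 5 were tested. Against sham 0 changed at 3 days and 3 rose at 14 days, Hspa1a, Hsbp1, a binding partner of heat shock factor 1 (0.38, limma adjusted p = 0.0427), and Hspa2, an Hsp70 best known from the testis. Hspa2 was above the median of all values, 190.8, only on the 5 arrays of 14 days of castration (244 ± 46.0, SD, n = 5, against 126 ± 40.8 in sham, 162 ± 6.64 at 3 days and 117 ± 34.1 with testosterone). It was therefore tested only through the group where it is high, and its calls are no support for the count. Between 3 and 14 days the same 3 genes rose. With testosterone Hspa1a and Hspa2 were called lower than after castration, and against sham 0 rose and 1 fell. The medians of the list, which include Hspa2, were -0.08 at 3 days, 0.38 at 14 days and -0.21 with testosterone against castration. Apart from Hspa2, the changes at 14 days against sham were 1.23 for Hspa1a, 0.38 for Hsbp1, -0.06 for Hmox1 and -0.22 for Hspa4l. On the 16 arrays of low Gapdh ratio 2 rose at 14 days against sham and 1 against 3 days. Heat shock factors Hsf2 and Hsf4 did not pass the filter. Of 7 small heat shock proteins 3 were tested, and all 3 were higher at 14 days than in sham: Hspb8 (0.99, adjusted p = 2.41e-05), Hspb2 (0.77, adjusted p = 0.0063) and Cryab (0.68, adjusted p = 0.02). All 3 also rose between 3 and 14 days (by 0.9998, 1.43 and 0.99 in that order). At 3 days Hspb2 was lower than sham (-0.66, adjusted p = 0.0492). With testosterone Hspb8 fell (-0.47, adjusted p = 0.0165) and stayed above sham (0.52, adjusted p = 0.00805), as did Hspb2 (0.58, adjusted p = 0.0337). These 3 genes are abundant in muscle, and the summed signal of 12 skeletal muscle markers ranged over 4446 to 19592 in sham, 2515 to 5711 at 3 days, 3907 to 33758 at 14 days and 12627 to 39881 with testosterone. Its part in these changes was not tested. On the 16 arrays of low Gapdh ratio all 3 genes fell with testosterone, not 1, and 1 was above sham, not 2.

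Of 15 subunits of the cytosolic chaperonin CCT and its partner prefoldin, which fold actin and tubulin, 12 were tested. At 3 days 1 rose and 0 fell, at 14 days 3 rose and 2 fell against sham, and between 3 and 14 days 2 rose and 1 fell. The changes at 14 days against sham were led by Cct8 (0.63, limma adjusted p = 0.000105). With testosterone 3 rose and 0 fell against castration: Cct3 (0.59, adjusted p = 0.000546), Cct7 (0.55, adjusted p = 0.000284) and Cct5 (0.23, adjusted p = 0.016). Against sham, 5 were higher and 1 lower in the testosterone group. On the 16 arrays of low Gapdh ratio the risers were 1 at 14 days against sham, 0 against 3 days and 3 with testosterone against sham. The medians of the list lay between -0.07 and 0.20. Its calls at 14 days against sham, 5 of 12, stand beside 52.9% of all probe sets, and those with testosterone, 3 of 12 against castration and 6 of 12 against sham, beside 44.8% and 53%. The shares of all probe sets called at 3 days and between 3 and 14 days were 14.3% and 40.5%. Of 14 other mitochondrial chaperones and proteases, 9 were tested. At 3 days 0 changed, and between 3 and 14 days 1 rose and 3 fell. At 14 days against sham 1 rose, Hspa9, the mitochondrial Hsp70 (0.31, adjusted p = 0.0198), and 5 fell, led by the protease Htra2 (-0.61, adjusted p = 0.000387) and the import factor Timm44 (-0.61, adjusted p = 0.00739). The medians of the list were -0.05 at 3 days, -0.30 at 14 days and 0.12 with testosterone against castration. With testosterone 2 rose and 2 fell against castration, 1 was higher and 3 lower than in sham, and Hspa9 was above sham (0.53, adjusted p = 0.000413), as were Hspd1 and Hspe1, while the protease Yme1l1 was below it (-0.91, adjusted p = 4.02e-05). The calls of this list, 6, 4, 4 and 4 of 9 after the third day, stand beside 52.9%, 40.5%, 44.8% and 53% of all probe sets in the same order of comparisons as above.

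The chaperones of the endoplasmic reticulum, which fold secreted proteins, mostly fell after 14 days of castration and rose with testosterone. Of 13 tested among 17, 0 rose and 3 fell at 3 days, 0 rose and 12 fell at 14 days, and 0 rose and 11 fell between 3 and 14 days. With testosterone 9 rose and 1 fell against castration, and 0 were higher and 5 lower than in sham. Of all probe sets, 4.46%, 24.3% and 20.4% were called lower in the 3 comparisons without testosterone, in the same order. With testosterone 18.2% and 26.6% were called higher and lower against castration, and 23.5% and 29.5% against sham. The median log2 change of these chaperones was -1.37 at 14 days against sham and 1.11 with testosterone, against 0.01 and -0.10 over all probe sets. Hspa5, the Hsp70 of that compartment, was 9272 ± 2030 (SD, n = 5) in sham, 7847 ± 620 at 3 days, 4177 ± 599 at 14 days and 8758 ± 1794 with testosterone. Its fall of 1.13 at 14 days (limma adjusted p = 7.47e-06) and rise of 1.05 with testosterone (adjusted p = 2.22e-05) may be set beside Hspa8, its cytosolic relative, with -0.02 and 0.20. The disulfide isomerase Pdia4 fell by 3.00 (adjusted p = 5.24e-05) and rose by 2.01 (adjusted p = 0.00262). Hsp90b1, the Hsp90 of the endoplasmic reticulum, fell by 1.37 (adjusted p = 4.65e-07) and rose by 1.55 (adjusted p = 1.27e-07), beside 0.19 and 0.67 for Hsp90aa1.

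Immediate early genes, which respond to stress and to tissue handling, were counted because heat shock genes can respond to the same stimuli. Of 17 tested, 8 rose and 0 fell at 3 days (9.84% and 4.46% of all probe sets). At 14 days 9 rose and 1 fell (28.6% and 24.3%), a total near the 52.9% of all probe sets called there. With testosterone 0 rose and 12 fell against castration (18.2% and 26.6%). Between 3 and 14 days 4 rose and 4 fell (20.2% and 20.4%). Against sham 3 were higher and 6 lower with testosterone (23.5% and 29.5%). The medians of the list were 0.36 at 3 days, 0.38 at 14 days and -0.70 with testosterone against castration. Fos, a transcription factor subunit, rose by 1.59 at 3 days (limma adjusted p = 9.82e-06) and by 1.26 at 14 days (adjusted p = 1.07e-05), and fell by 1.68 with testosterone (adjusted p = 4.52e-07). Gadd45b, a stress sensor, was above 190.8 only on the 5 arrays of 14 days of castration (942 ± 281, SD, n = 5, against 84.3 ± 48.3 in sham, 148 ± 9.02 at 3 days and 150.4 ± 32.4 with testosterone). It too was therefore tested only through the group where it is high. The counts and medians of the list include it, among the genes called higher than in sham at 3 and at 14 days. Its calls are no support for the counts. Hspa1b rose in the same comparisons with sham but was not called lower with testosterone, and the part of these genes' stimuli in the changes of Hspa1b was not tested.

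**Figure D4:**
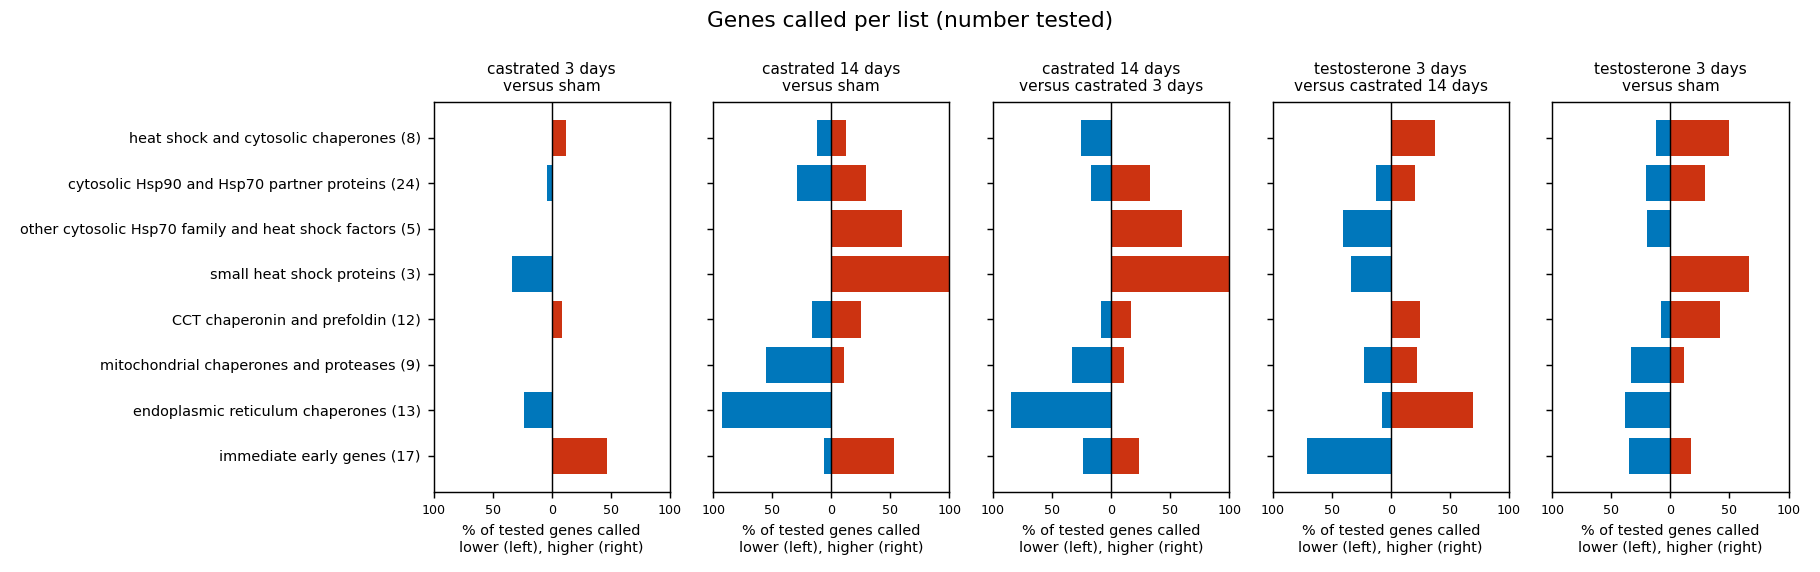
Percentage of the tested genes of each gene list called higher (to the right) and lower (to the left) by limma. The number tested is in brackets, and the 5 comparisons are shown side by side. The bars include Gadd45b (immediate early genes) and Hspa2 (other Hsp70 family), which were tested only through the 14-day group, where they are high. The list of endoplasmic reticulum chaperones has 12 of 13 genes lower at 14 days of castration, beside 24.3% of all probe sets. With testosterone 9 of them are higher than after castration, beside 18.2%. The heat shock and cytosolic chaperones have 5 of 8 genes called between testosterone and sham, where 53% of all probe sets were called.

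Markers of several cell types moved with the groups. The summed signal of 10 macrophage and myeloid markers was 1940 to 2458 in sham, 4997 to 5954 at 3 days, 9264 to 16902 at 14 days and 3967 to 6038 with testosterone. Of 7 tested, 6 rose at 3 days and 7 at 14 days (9.84% and 28.6% of all probe sets). With testosterone 7 fell against castration (26.6% of all probe sets). For 9 fibroblast markers the sums were 13512 to 14935, 18435 to 23104, 20708 to 28571 and 18468 to 24440. Smooth muscle markers, 8 in number, summed to 26998 to 32625, 20323 to 28789, 17224 to 22879 and 38878 to 41750. For 8 luminal markers they were 34358 to 44040, 42943 to 49168, 32826 to 49228 and 34840 to 40878. Endothelial markers, 8 in number, summed to 1621 to 2438, 2203 to 2997, 3367 to 3880 and 2102 to 2701, and 5 basal markers to 477 to 788 over all groups. For lymphocyte markers (9 measured) and adipocyte markers (4 measured), the sums over all groups were 543 to 1252 and 602 to 2894. No marker was at 0 on any array. Hspa1b was lowest in the group with the lowest myeloid and fibroblast sums, and Hsp90aa1, Hspd1 and Hspe1 were highest in the group with the highest smooth muscle sum; the part of cell composition in the changes of the members was not tested.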

How the data were processed

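Each of the 20 prostate samples was measured on 1 Affymetrix MG-U74A array. Values were deposited by the authors as intensity signals (linear, 1 for each probe set), and MAS5 5.0 is the tool named in the submitters' processing notes. The trimmed mean was 500.2 to 500.3 on all arrays, so they had been scaled before deposit. Probe sets were named from the platform annotation in GEO: of 12422 that are not Affymetrix controls, 10833 had 1 symbol, 396 several and 1193 none.

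Log2 of the signal plus 12.7 (the 10th percentile) was analysed for 6913 probe sets above the median, 190.8, on at least 5 of 20 arrays. limma 3.58.1 in R 4.3.3 fitted all 4 groups in 1 model with 5 contrasts (two-sided, Benjamini-Hochberg over all 6913, threshold 0.05). Groups came from the labels, which name no batch and no pairing, so p-values cover the spread between these mice. The running numbers of the arrays follow the groups, so a batch that does so and treatment cannot be told apart. Each gene is given by its brightest probe set, and a fold is on the scale of log2(signal + 12.7). Other probe sets of a member stand beside it.

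The genes and lists were chosen with earlier results of these data known, so no p is adjusted over a list alone. The genes named were all members, up to 3 called genes of each list per comparison with the largest change (a selection is printed), Fkbp5 and Hspa5, and the 2 genes most correlated with each member. Fkbp4, Cdc37, Hsp90b1, the heat shock factors, Pbsn and the ratios of gene pairs were chosen after their values were seen, as was the motif TTCNNGAA. The ratios were tested with exact permutation tests in scipy 1.17.1. The fit was checked on simulated data. Alternatives were a pseudocount of 1 or 43.2, no filter or a filter on the mean, centred arrays, quantile normalization, only the compared groups, array weights, eBayes with a trend, the mean over probe sets, leaving out 4 arrays of high Gapdh ratio and leaving out each array. The number of arrays limits the precision.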

Additional observations from a re-analysis of the deposited data

Results flagged for a closer look

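A probe set of Hspa4 that is not its brightest had 1 array far from the rest of its group: among mice castrated for 14 days, replicate 5 gave 827.8, against 606.6 to 644.7 on the other 4 arrays. The gap was 0.828 of the group's range, above the Dixon limit of 0.71 for 5 values. This array is 1 of the 4 with a high Gapdh ratio. Of 44 sets of 5 arrays examined, 1 passed the limit, and chance passes about 1 in 20.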

How the results depend on the processing

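Each of 40 log2 changes (8 members, 5 comparisons) was recomputed in 31 settings: 1172 values kept direction and call, 28 lost the call, 9 gained it and 31 changed sign, all of the last without a call. No paired analysis was possible because the labels number no replicates, and the replicate numbers used here are only the order within a group. The setting that averages a gene's probe sets was not applied to the counts of all probe sets. The cause of the following changes was not tested.

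The count of members higher at 3 days than in sham, 1, became 0 with no filter and with array weights, 2 with quantile normalization, 2 when the 4 arrays of high Gapdh ratio were left out, and 0 to 1 when 1 array was left out. Leaving out 1 array gave 1 to 2 members higher at 14 days than in sham, 0 to 1 higher at 14 than at 3 days, and 0 to 1 lower with testosterone than in sham. The last count was 0 with centred arrays, only the compared groups, array weights and without the 4 arrays. With no filter Hspb1 enters and 2 members were lower at 14 days than in sham. With quantile normalization 1 member was higher with testosterone than after castration, in place of 3. With no filter, which tests more probe sets, the probe sets called lower than sham were 471 at 3 days (308 otherwise), 2690 at 14 days (1679) and 3317 with testosterone (2041). With centred arrays 1024 were lower with testosterone than after castration (1840) and 1206 lower than in sham (2041).

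Signs changed as follows (log2). At 3 days against sham, Hspa4 was 0.0365 as the mean of its probe sets and Hsph1 was 0.00204 with array weights. At 14 days against sham, Hspa8 was 0.14 with quantile normalization and Hspa4 0.21 as the mean. Between 3 and 14 days, without the 4 arrays, Hsp90aa1 was -0.00987, Hspa4 -0.0729 and Hspe1 -0.0335, and Hspa4 was -0.0197 with array weights. Between castration and testosterone, Hspa8 was -0.0744 with quantile normalization, Hspa1b 0.0734 with centred arrays, and Dnajb1 0.0263 with centred arrays, 0.00579 with quantile normalization, 0.10 with array weights and 0.21 without the 4 arrays. Against sham with testosterone, Hspa4 was -0.0788 without the 4 arrays. With 1 array left out, the ranges at 3 days against sham were -0.0943 to 0.34 for Hsp90aa1, -0.00386 to 0.15 for Hspa8, -0.31 to 0.0069 for Hspa4 and -0.13 to 0.11 for Hsph1. At 14 days against sham they were -0.11 to 0.0426 for Hspa8 and -0.24 to 0.0686 for Hspa4, and between 3 and 14 days -0.00246 to 0.12 for Hspa4. Between castration and testosterone the range was -0.30 to 0.0392 for Dnajb1, and against sham -0.0780 to 0.23 for Hspa4 and -0.0321 to 0.31 for Dnajb1.

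Of 70 counts of called genes in the other lists, 38 moved by over 1.5 times in some setting. Endoplasmic reticulum chaperones lower at 14 days than in sham numbered 11 to 13, and those higher with testosterone than after castration 9 to 10. Partner proteins higher at 14 days numbered 5 to 8, and lower 4 to 8. Dim probe sets such as Hspb1 give no usable change.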
